A study of Mus musculus with 18 samples.

Results

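Genes of the nuclear pore complex and of nuclear transport were followed in mouse erythroblasts, the precursors of red blood cells, after a short treatment with tunicamycin. The members were chosen by symbol: names that begin with Nup or Ipo followed directly by a digit, or with Kpna, Kpnb, Xpo or Tnpo, together with Tpr, Ran, Ranbp1, Ranbp2, Rangap1, Rcc1, Rae1, Seh1l, Aaas, Pom121 and Ndc1. Symbols were taken as they stand in the deposited table; the rule itself uses names only, and it was set with earlier results of these data known. This gave 55 of the 20683 genes in the count table, on 160 feature lines, and 43 of them had at least 1 position in the harringtonine data. Of the 55 genes, 53 had enough reads to be tested in RNA and 52 in coding footprints. Kpna7, a germline importin alpha, had no RNA read in any library, Nup62cl had at most 0.0692 CPM (read counts scaled to the library total), and Nup210l had at most 0.827 RNA CPM.

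The cells came from fetal livers of Trp53 -/- mice on a mixed FVB/n x C57BL/6 background and were expanded in culture with erythropoietin, stem cell factor and dexamethasone. One arm received tunicamycin, an inhibitor of N-glycosylation that stresses the endoplasmic reticulum, at 2.5 µg/ml for 1.5 h, and the other arm was left untreated. All groups lacked Trp53, so no wild-type cell enters any comparison. Each arm was read in 3 kinds of library with 3 samples each, which makes 18 samples in 6 groups: total RNA, ribosome footprints fixed with cycloheximide at 100 µg/ml for 5 min, and footprints taken after harringtonine at 2 µg/ml, a drug that holds ribosomes at start codons. The series asks, as its title states, which mRNAs are selectively translated when the initiation factor eIF2 is phosphorylated.

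The nuclear pore complex is a large ring-shaped channel through the nuclear envelope, built from nucleoporins that occur in many copies. A scaffold of outer rings (the Y complex) and an inner ring holds it, membrane nucleoporins anchor it, phenylalanine-glycine nucleoporins fill the channel, and filaments on the cytoplasmic side and a basket on the nuclear side dock cargo. Importins and exportins carry proteins and RNA through it, and the small GTPase Ran, loaded with GTP by Rcc1 in the nucleus and discharged with the help of Rangap1 and Ranbp1 in the cytoplasm, gives the traffic its direction. Erythroblasts condense and finally expel the nucleus, and the exportin Xpo7 is known for its high level in these cells.

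RNA libraries held 14.5 to 43.5 M reads (mega reads) with tunicamycin and 12.9 to 49.0 M untreated. Cycloheximide libraries held 4.53 to 5.09 M coding footprints with tunicamycin and 6.42 to 6.65 M untreated. Kept harringtonine positions held 0.559 to 0.648 M reads with tunicamycin and 0.447 to 0.524 M untreated. Nothing in the labels tells whether the samples within an arm are different cultures or animals, and the p-values cover the spread between them alone, which may be technical. Markers matched the labelled cell type: 10 erythroid genes summed to 4850 to 5176 RNA CPM with tunicamycin and 4930 to 5217 untreated, against at most 2.18 CPM for 5 macrophage, 0.466 for 5 neutrophil and monocyte, 1.94 for 4 hepatocyte and 1.18 for 5 endothelial and stromal genes. Mast cell genes summed to 107 to 172 CPM with tunicamycin and 105 to 169 untreated, and megakaryocyte genes to 94.4 to 104 CPM with tunicamycin and 113 to 119 CPM untreated. Most of each sum came from 1 gene, Ms4a2 with a mean of 139 CPM and Gp5 with a mean of 100 CPM. The part of mast cell and megakaryocyte genes in the results was not tested. In bulk libraries, fewer cells of a type and less RNA per cell cannot be told apart.

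At the RNA level the nuclear basket gene Tpr rose and no member fell in the fit without a replicate block. The fit with the replicate number as a block, given below, called further members higher. Without the block, the edgeR quasi-likelihood test called 1 of the 53 tested members higher at an adjusted p under 0.05, where 0.15% of the 10643 genes tested were called higher. It called 0 members lower and 0% of all genes lower, while 19 members (35.8%) and 1324 genes (12.4%) had an unadjusted p under 0.05. Most member values lay slightly above 0: the median log2 change was 0.11 and 46 of 53 members were positive, against a median of -0.00499 and 48.5% of all genes. In 18 members all tunicamycin libraries lay above all untreated ones and in 0 members below, where 8.4% and 9.47% of all genes did so. The summed RNA of the members was 10689, 10060 and 10493 CPM with tunicamycin, against 9990, 9480 and 9765 CPM untreated.

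**Figure D1:**
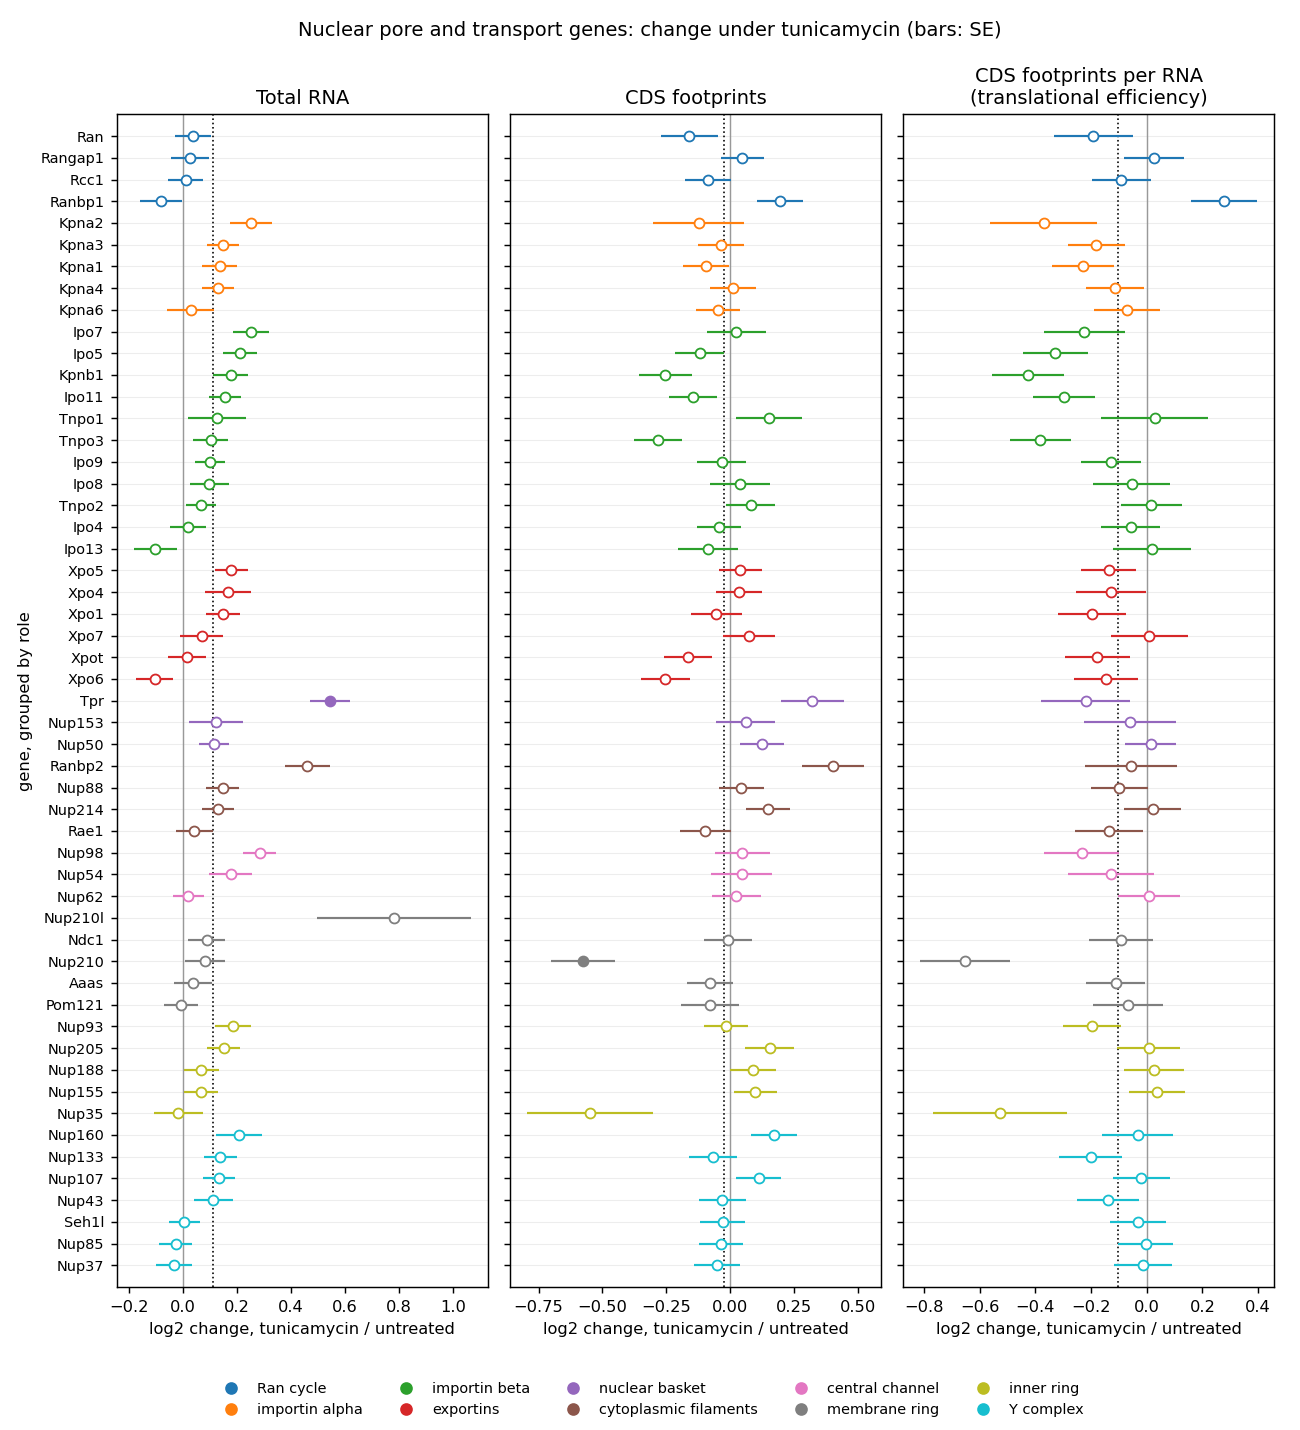
Log2 change (tunicamycin over untreated) of the 53 members tested in RNA, for total RNA, CDS footprints and footprints per RNA; each row is a gene, colour gives its role, bars are the SE of the edgeR fit, filled circles passed at an adjusted p under 0.05 and the dotted line is the members' median. In these fits, which have no replicate block, Tpr was the filled circle in RNA and Nup210 the filled circle in CDS footprints. Most RNA values lay right of 0.

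The called change was that of Tpr alone among the nuclear basket genes. Tpr, a long coiled-coil protein that forms the basket's filaments, had 285, 266 and 305 RNA CPM in tunicamycin libraries, against 205, 178 and 208 CPM in untreated libraries. The groups did not overlap, and the log2 change was 0.55 ± 0.07 (SE, edgeR adjusted p = 0.0230, higher in 3 of 3 libraries). Its span overlaps those of Odr4 and Prg4 in RefSeq, and the sources used here do not state how reads in such overlaps were assigned. Nup153, which tethers the basket to the pore, had 211, 172 and 180 CPM with tunicamycin and 200, 158 and 162 CPM untreated, so its groups overlapped (log2 0.12 ± 0.10, edgeR adjusted p = 0.657). Nup50, a mobile basket protein that helps release import cargo, had 217, 208 and 212 CPM with tunicamycin and 200, 195 and 196 untreated; the gap was small, with a log2 value of 0.11 and an edgeR adjusted p of 0.440. The edgeR call for Tpr was lost when tunicamycin RNA library 2 or 3 or untreated RNA library 2 or 3 was left out, with log2 values from 0.47 to 0.58 and adjusted p from 0.0686 to 0.183.

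On the cytoplasmic side, Ranbp2 encodes the giant nucleoporin and SUMO ligase that makes up the filaments. It had 229, 193 and 221 RNA CPM with tunicamycin, against 172, 142 and 156 CPM untreated. All tunicamycin libraries were above all untreated ones. The log2 change of 0.46 ± 0.08 missed the threshold without a replicate block (edgeR adjusted p = 0.0818) and passed with it, as given below. Nup98, a phenylalanine-glycine nucleoporin of the channel that also binds mRNA export factors, had 132, 124 and 137 CPM with tunicamycin and 113, 103 and 108 CPM untreated, again without overlap (log2 0.28 ± 0.06, edgeR adjusted p = 0.157). The other members of these roles had log2 values from 0.02 (Nup62) to 0.18 (Nup54), and none passed.

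Among soluble factors, the import receptor Ipo7 had 270, 247 and 257 RNA CPM with tunicamycin and 229, 202 and 223 CPM untreated (log2 0.25 ± 0.07, edgeR adjusted p = 0.232). Kpna2, an importin alpha that links cargo with a classical localization signal to importin beta, had 126, 147 and 141 CPM with tunicamycin and 107, 125 and 118 CPM untreated (log2 0.25 ± 0.08, edgeR adjusted p = 0.282). Both sets of libraries were separate, the Kpna2 sets only narrowly, and RefSeq also lists a pseudogene, Kpna2-ps, with which reads could be shared. Kpnb1, the importin beta that carries those complexes through the pore, had 914, 836 and 919 CPM with tunicamycin and 842, 767 and 766 CPM untreated (log2 0.18, edgeR adjusted p = 0.341). Xpo1, the main export receptor for proteins with a leucine-rich signal, had 333, 308 and 356 CPM with tunicamycin and 303, 290 and 313 CPM untreated (log2 0.15, edgeR adjusted p = 0.384). For Kpnb1 and Xpo1 the lowest tunicamycin library lay below the highest untreated one.

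In the Ran cycle the arms overlapped for every gene. Ran had 918, 914 and 833 RNA CPM with tunicamycin and 879, 863 and 876 CPM untreated (log2 0.04 ± 0.07, edgeR adjusted p = 0.876). Rcc1, the exchange factor on chromatin, had 147, 155 and 157 CPM with tunicamycin and 142, 158 and 160 CPM untreated (log2 0.01 ± 0.06, edgeR adjusted p = 0.971). The 4 genes of the cycle summed to 1921 ± 77.1 CPM with tunicamycin and 1941 ± 29.4 CPM untreated (SD, n = 3 each). Xpo7 had 131, 132 and 148 CPM with tunicamycin and 117, 133 and 146 CPM untreated, with a log2 value of 0.07 and an edgeR adjusted p of 0.770. Summed RNA was above every untreated library in all tunicamycin libraries for the basket (714, 646 and 696 CPM with tunicamycin, 605, 531 and 566 untreated), the cytoplasmic filaments (620, 564 and 609 with tunicamycin, 533, 484 and 528 untreated), the channel, the importin alphas and the importin betas, and overlapped for the Ran cycle, the Y complex, the inner ring, the membrane ring and the exportins. A separate sum does not show that each gene of a role rose. In the basket the log2 value was 0.55 for Tpr and 0.12 and 0.11 for Nup153 and Nup50. In the filaments it was 0.46 for Ranbp2 and at most 0.15 for the other genes. The sums were not set against those of other gene sets.

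The scaffold genes had small values in RNA. Log2 changes ran from -0.04 to 0.21 over the 7 Y complex genes and from -0.02 to 0.18 over the 5 inner ring genes. None of them passed in the edgeR fit without a replicate block. The Y complex summed to 1153, 1070 and 1108 CPM with tunicamycin and 1098, 1036 and 1087 CPM untreated, and the inner ring to 786, 734 and 804 CPM with tunicamycin and 738, 691 and 726 CPM untreated. Both sums overlapped between arms, the inner ring by its second tunicamycin library alone. The 6 exportins ran from -0.11 (Xpo6) to 0.18 (Xpo5), also without a call.

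RNA libraries of the 2 arms that carry the same number deviated together, so the fit with the replicate number as a block stands beside these calls. The third pair is the least clear, since tunicamycin library 3 was as close to untreated library 2 as to untreated library 3. With the replicate block, edgeR called 2.66% of all genes higher and 1.19% lower, and 7 members higher and 0 lower. These were Tpr (adjusted p = 0.00138), Ranbp2 (0.00185), Nup98 (0.0163), Kpna2 (0.0236), Ipo7 (0.0262), the import receptor Ipo5 (0.0378) and the Y complex scaffold gene Nup160 (0.0492), with log2 values from 0.21 to 0.55.

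In coding footprints the edgeR fit without a replicate block called the membrane ring gene Nup210 lower and no member higher. Of the 52 members tested, edgeR called 0 higher and 1 lower. Of the 9265 genes tested it called 2.58%, with 1.78% higher and 0.799% lower, and 8 members (15.4%) had an unadjusted p under 0.05, where 16.6% of all genes did. The members' median log2 change was -0.02, with 24 of 52 values above 0, against 0.00223 and 50.5% over all genes. Groups were separate upwards in 2 members (Nup214 and Nup50) and downwards in 5 (Nup210, Nup35, Tnpo3, Xpo6 and Xpot), where 10.1% and 11.8% of all genes were. Members' coding footprints summed to 15494 ± 676 CPM with tunicamycin and 15701 ± 680 CPM untreated (SD, n = 3 each). With the replicate number as a block, edgeR called members both higher and lower, as counted in the last section.

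Nup210 encodes a transmembrane glycoprotein of the pore whose long domain lies in the lumen of the nuclear envelope. It had 175, 143 and 118 coding CPM in tunicamycin libraries, against 236, 197 and 222 CPM in untreated libraries. The lowest untreated library stood above the highest tunicamycin library, and the log2 change was -0.58 ± 0.13 (edgeR adjusted p = 0.0275). Its RNA was 120, 100 and 108 CPM with tunicamycin and 109, 99.4 and 103 CPM untreated, with overlap (log2 0.08, edgeR adjusted p = 0.702). Coding CPM per RNA CPM was 1.46, 1.42 and 1.09 with tunicamycin, against 2.16, 1.98 and 2.15 untreated. Nup210 missed the threshold in the edgeR test of this ratio (log2 -0.65 ± 0.16, adjusted p = 0.0541). The edgeR call on its coding footprints was lost when tunicamycin library 2 or 3 or any of the 3 untreated libraries was left out, with log2 values from -0.64 to -0.44 and adjusted p from 0.0536 to 0.135, and was kept without tunicamycin library 1 (-0.75, adjusted p = 0.000290).

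The other membrane ring genes with coding footprints had log2 values between -0.08 and -0.01, and none passed. Nup35, a small inner ring protein that binds membranes, had few footprints: 3.02, 3.53 and 3.93 coding CPM with tunicamycin and 4.81, 4.79 and 5.92 untreated. Its groups were separate but the edgeR log2 value of -0.55 ± 0.25 did not pass (adjusted p = 0.282). Ranbp2 had 444, 311 and 400 coding CPM with tunicamycin and 318, 301 and 263 CPM untreated. Its groups overlapped by 1 library, and the log2 change was 0.40 ± 0.12 (edgeR adjusted p = 0.0974). Tpr had 398, 306 and 402 coding CPM with tunicamycin and 329, 310 and 253 CPM untreated. These overlapped as well (log2 0.32 ± 0.12, edgeR adjusted p = 0.190).

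**Figure D2:**
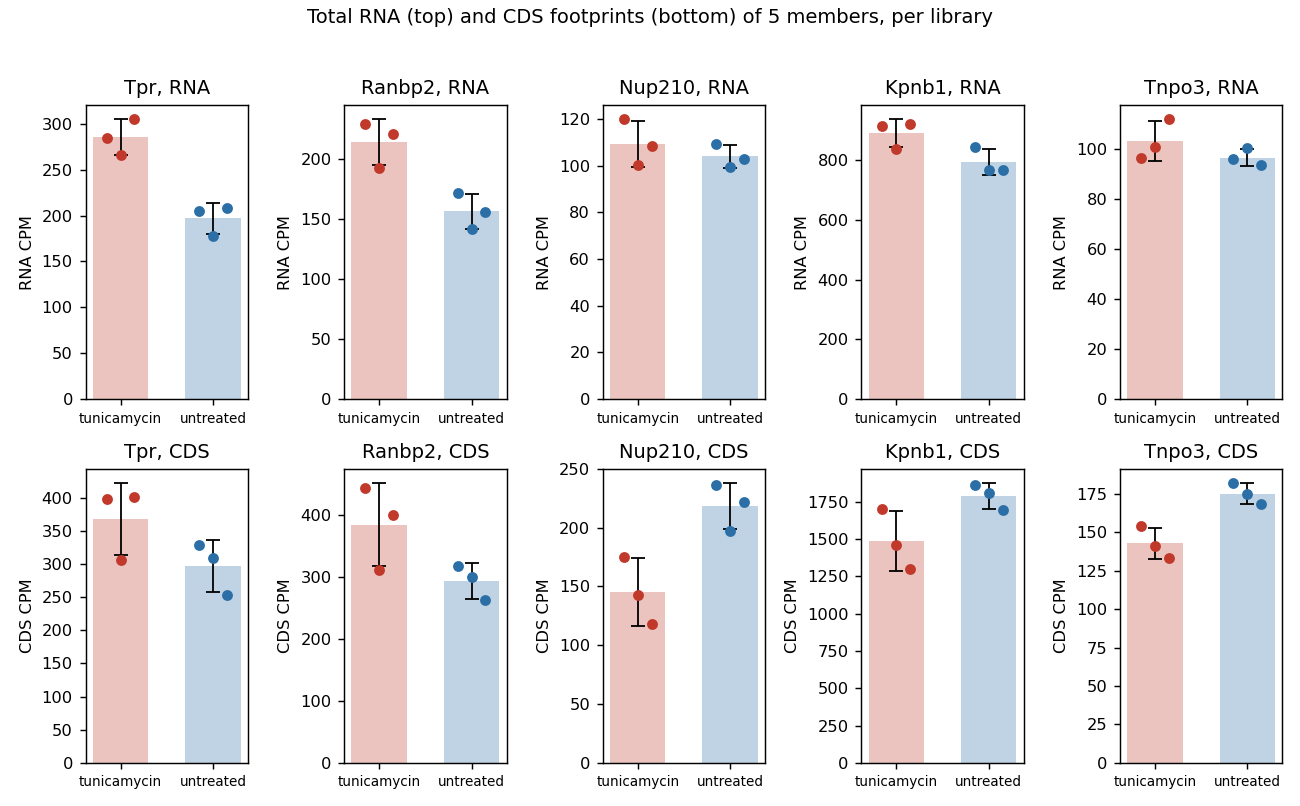
RNA (top row) and coding footprints (bottom row) of Tpr, Ranbp2, Nup210, Kpnb1 and Tnpo3 in CPM; points are the 3 libraries of each arm, bars their mean and whiskers the SD. Tpr and Ranbp2 RNA and Nup210 and Tnpo3 coding footprints show no overlap between tunicamycin and untreated libraries.

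Several soluble factors had values on the lower side but did not pass in the fit that has no replicate block. Tnpo3, the transportin that imports splicing factors rich in serine and arginine, had 154, 141 and 134 coding CPM with tunicamycin and 182, 175 and 168 CPM untreated. No tunicamycin library reached the untreated range, with a log2 change of -0.28 ± 0.09 (edgeR adjusted p = 0.126). Kpnb1 had 1700, 1461 and 1300 coding CPM with tunicamycin and 1867, 1809 and 1694 CPM untreated. Only tunicamycin library 1 lay within the untreated range (log2 -0.25 ± 0.10, edgeR adjusted p = 0.229). Among exportins, Xpo6, the export receptor for actin with profilin, had 108, 111 and 92.8 coding CPM with tunicamycin and 123, 124 and 129 CPM untreated (log2 -0.25 ± 0.09, edgeR adjusted p = 0.182).

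No member passed in translational efficiency, which sets coding footprints against RNA and was fitted as an assay by treatment interaction. Over 52 members edgeR called 0 higher and 0 lower, and 7 (13.5%) had an unadjusted p under 0.05, where 15.5% of all genes did. Of the 9218 genes tested it called 1.4%, with 1.02% higher and 0.38% lower. DESeq2 called 3 members lower (Nup210, Tnpo3 and Kpnb1) and 0 higher, where it called 1.53% of all genes lower and 2.34% higher. With the replicate number as a block, edgeR called 5 members lower (Nup210, Kpnb1, Tnpo3, Ipo5 and Ipo11) and Ranbp1 higher, where 4.23% of all genes were called lower and 4.77% higher. The numbers pair the RNA libraries by the rule used here but not the footprint libraries. The members' median log2 value was -0.11 and 12 of 52 (23.1%) lay above 0, against a median of -0.00763 and 48.4% over all genes. RNA enters this ratio as well as the RNA comparison, so the 2 sets of values are not independent.

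Coding CPM per RNA CPM of Tnpo3 was 1.59, 1.39 and 1.19 with tunicamycin and 1.90, 1.74 and 1.80 untreated (log2 -0.38 ± 0.11, edgeR adjusted p = 0.0858). For Kpnb1 it was 1.86, 1.75 and 1.42 with tunicamycin and 2.22, 2.36 and 2.21 untreated (log2 -0.43 ± 0.13, edgeR adjusted p = 0.103). In both genes the arms were separate, with tunicamycin lower in 3 of 3 libraries. Other members were separate in the same direction, among them Ipo5, Ipo11, Kpna1, Kpna3, Nup93, Nup35 and Nup210. The share of all genes with separate arms in this ratio was not counted. Ipo5, which imports ribosomal proteins and histones, had 1.45, 1.44 and 1.34 with tunicamycin and 1.75, 2.02 and 1.58 untreated (log2 -0.33 ± 0.12, edgeR adjusted p = 0.164). Ranbp1, the Ran-binding cofactor of GTP hydrolysis, lay on the other side of 0, with 0.80, 0.972 and 1.01 with tunicamycin and 0.651, 0.821 and 0.825 untreated. Its arms overlapped (log2 0.28 ± 0.12, edgeR adjusted p = 0.262). All 7 Y complex genes and all 5 tested importin alphas had values below 0, from -0.20 to -0.00435 and from -0.37 to -0.07, and none of them passed.

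Footprints on 5′ leaders, the stretch of an mRNA before its main start codon, were a larger share of footprints with tunicamycin in most members, as in most genes. Of 33 members with enough leader footprints, 25 rose in the ratio of leader to coding footprints and 0 fell by the edgeR test, where 64.4% of 4693 genes were called higher and 0.0639% lower. The members' median log2 change was 1.14, against 0.90 over all genes tested. All 33 values were positive, where 97.8% of all genes tested were. In 26 members the leader percent of every tunicamycin library exceeded that of every untreated library and in 0 it lay below, where 69.3% and 0.17% of all genes did so. The filter asked for about 10 leader footprints in 3 libraries, so a leader could enter through its tunicamycin libraries alone. Nup37 did so, with 10, 20 and 14 leader footprints with tunicamycin and 6, 8 and 3 untreated. These counts and medians therefore favour leaders that were high with tunicamycin, in members and in all genes. Summed over the members, leaders took 2.81, 3.08 and 3.94% of leader and coding footprints with tunicamycin, against 1.67, 1.30 and 1.73% untreated. Over all genes the share was 8.73 ± 1.44% with tunicamycin and 4.90 ± 0.736% untreated (SD, n = 3 each).

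Since most genes shifted, the members were also read relative to the typical leader, with separate scaling factors for leader and coding columns. The median over all genes then stood at 0.00320 and the members' median at 0.24. On this scale edgeR called 4 members higher and 0 lower, where 5.67% of genes were called higher and 6.31% lower. The 4 were Ran, Xpo1, Nup62 and Kpnb1.

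**Figure D3:**
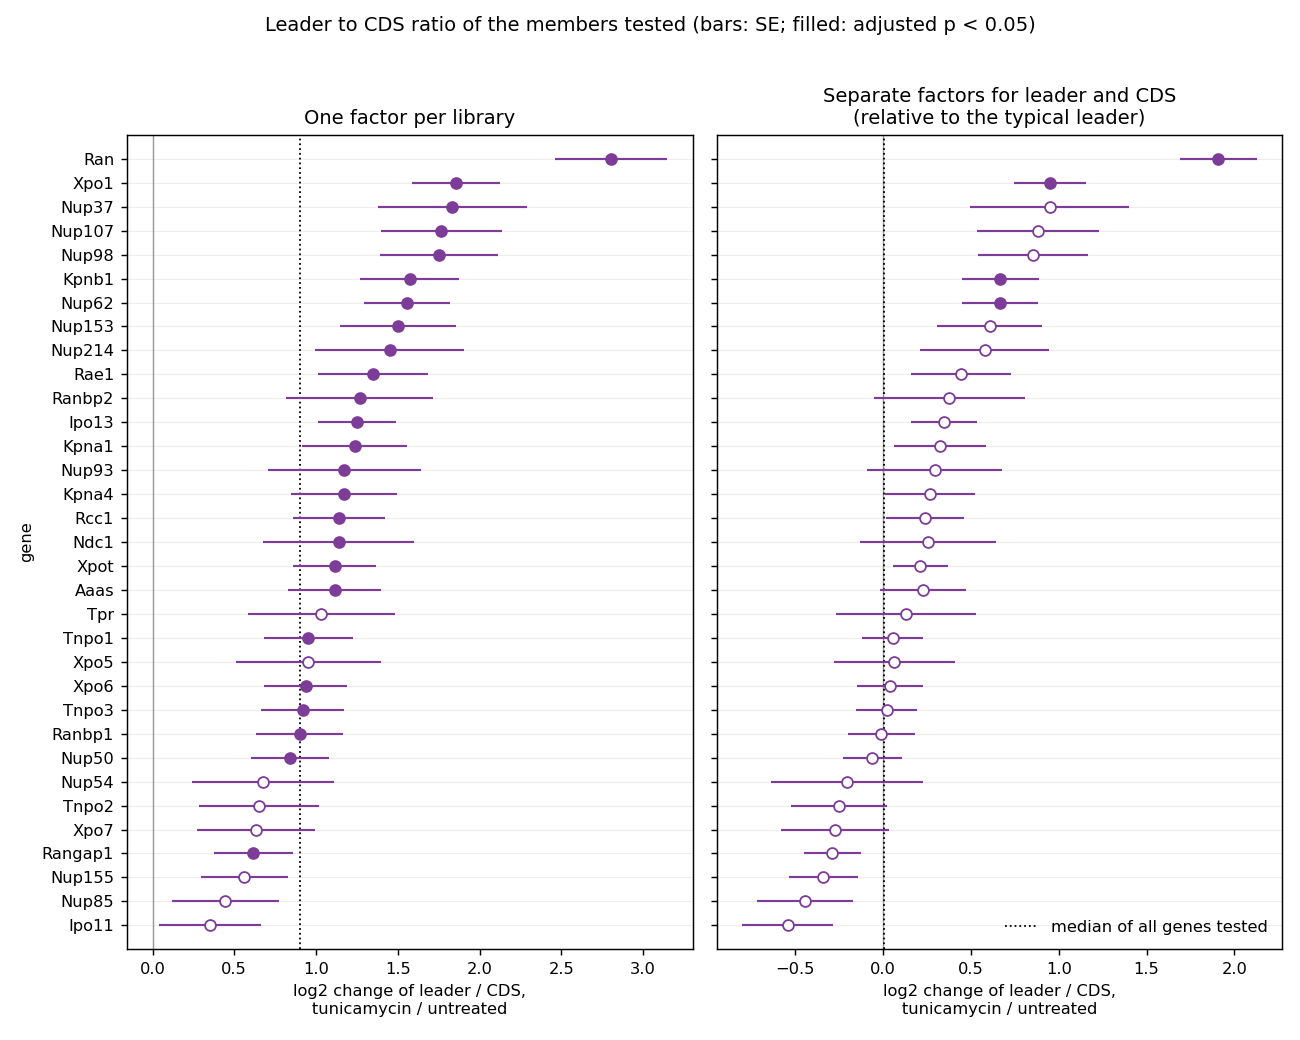
Log2 change of the leader to CDS ratio in the 33 members tested, with 1 scaling factor per library (left) and relative to the typical leader (right); bars are SE, filled circles passed at an adjusted p under 0.05 and the dotted line is the median of all genes. Ran lay farthest to the right on both scales, and Ran, Xpo1, Kpnb1 and Nup62 were the filled circles on the right.

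Ran had 171, 197 and 300 leader footprints in tunicamycin libraries, against 49, 32 and 62 in untreated libraries. As a share of its leader and coding footprints this was 6.62, 9.06 and 13.6% with tunicamycin and 1.36, 0.976 and 2.22% untreated. The lowest tunicamycin value was above the highest untreated value, with a log2 change of the ratio of 2.80 ± 0.34 (edgeR adjusted p = 0.000385), and of 1.91 ± 0.22 relative to the typical leader (adjusted p = 3.83e-06). Its coding footprints were 486, 436 and 375 CPM with tunicamycin and 534, 501 and 426 CPM untreated. These overlapped (log2 -0.16 ± 0.11, edgeR adjusted p = 0.523).

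Xpo1 had 75, 69 and 95 leader footprints with tunicamycin and 35, 31 and 26 untreated, or 2.44, 2.64 and 3.23% of leader and coding footprints with tunicamycin, against 0.857, 0.712 and 0.760% untreated. The arms were well apart (log2 1.85 ± 0.27, edgeR adjusted p = 0.000608; 0.95 ± 0.21 and 0.00345 relative to the typical leader). Kpnb1 had 87, 67 and 97 leader footprints with tunicamycin and 35, 42 and 60 untreated, with leader percents of 1.02, 1.00 and 1.45 with tunicamycin and 0.281, 0.357 and 0.549 untreated (log2 1.57 ± 0.30, edgeR adjusted p = 0.00130; 0.67 and 0.0456 relative to the typical leader). Nup62, the central channel nucleoporin, had 70, 83 and 81 leader footprints with tunicamycin and 37, 37 and 32 untreated (log2 1.56 ± 0.26, edgeR adjusted p = 0.000847; 0.66 and 0.0453 relative to the typical leader). The RefSeq span of Nup62 overlaps those of Atf5 and Il4i1b, and which reads of the shared stretch were counted for Nup62 was not tested.

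**Figure D4:**
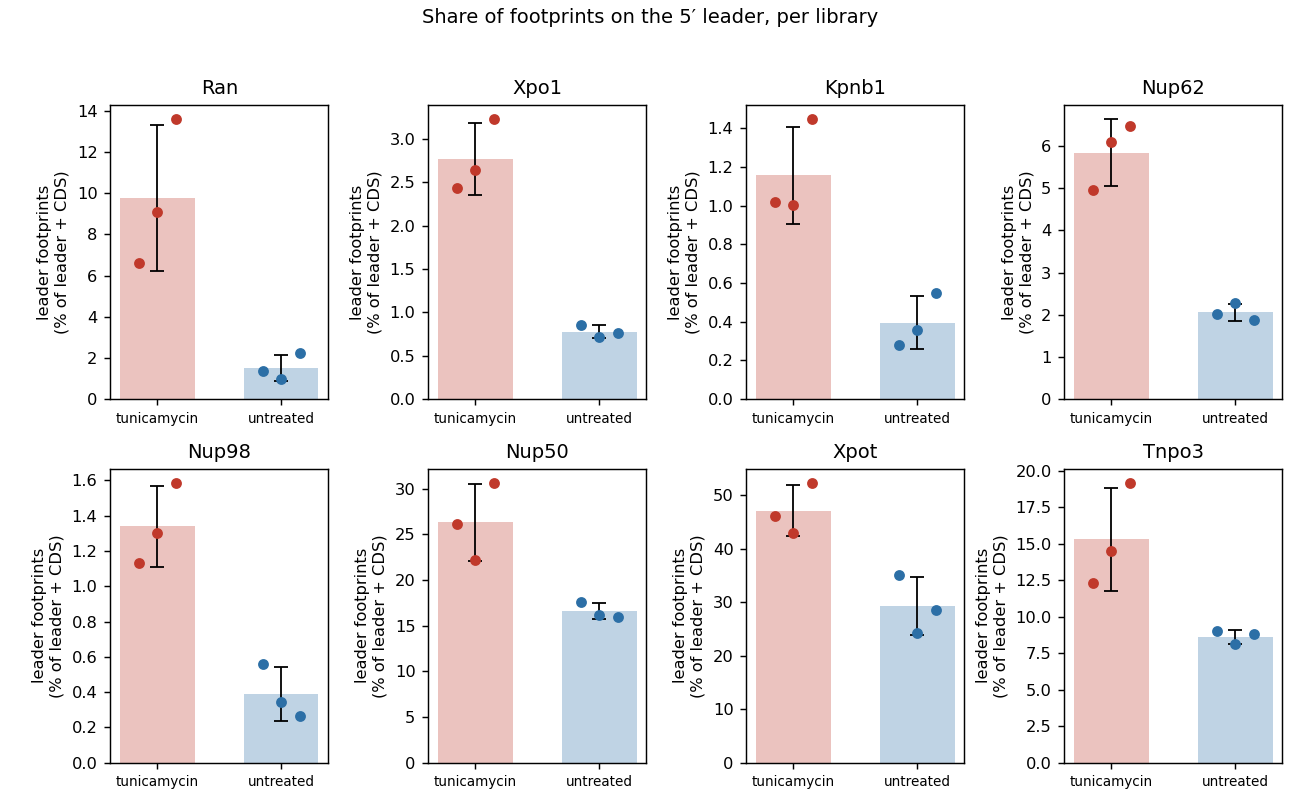
Leader footprints as a percent of leader and coding footprints in 8 members; points are the 3 libraries of each arm, bars the mean and whiskers the SD, with tunicamycin left of untreated and a separate axis per gene. No tunicamycin library overlaps an untreated one in these 8 genes, and the untreated mean runs from 0.389% (Nup98) to 29.3% (Xpot).

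The remaining members called higher with 1 factor per library covered every role, where 64.4% of all genes tested were called higher on that scale. None of these remaining members passed relative to the typical leader. In the scaffold, Nup37 and Nup107 of the Y complex (log2 1.83 and 1.77) and Nup93 of the inner ring (1.17) passed. Nup107 rested on 21, 15 and 22 leader footprints with tunicamycin and 9, 6 and 6 untreated, and Nup37 on fewer in sum. In the channel and on its faces, Nup98 (1.75), Nup214 (1.45) and Rae1 (1.35), which dock exported mRNA, Ranbp2 (1.27), and Nup153 (1.50) and Nup50 (0.84) of the basket passed. Membrane ring genes Ndc1 and Aaas had log2 values of 1.14 and 1.11.

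Among the soluble factors the called changes were Rcc1 (log2 1.14), Ranbp1 (0.90) and Rangap1 (0.62), the importin alphas Kpna1 (1.24) and Kpna4 (1.17), the import receptors Ipo13 (1.25), Tnpo1 (0.95) and Tnpo3 (0.92), and the exportins Xpot (1.12), which exports tRNA, and Xpo6 (0.94). The calls for Rangap1, Ranbp2, Ndc1, Nup93 and Nup214 were the ones that leaving out 1 library could end. Rangap1 lost it without any 1 of the tunicamycin libraries or untreated library 1 or 2 (edgeR adjusted p from 0.0580 to 0.106), and Ranbp2 without tunicamycin library 1 or 2 or untreated library 2 (0.0593 to 0.0983). Ndc1 lost it without tunicamycin library 2 or 3 or untreated library 2 (edgeR adjusted p from 0.129 to 0.138), Nup93 without tunicamycin library 3 or untreated library 2 or 3 (0.0605 to 0.328), and Nup214 without tunicamycin library 3 (0.121). DESeq2 did not call Rangap1, Nup93 or Ndc1. Relative to the typical leader no member passed but Ran, Xpo1, Nup62 and Kpnb1. Of the members called with 1 factor per library, Ranbp1, Rangap1 and Nup50 had values below 0 on that scale (-0.01, -0.29 and -0.06). Members not called also lay below 0, the lowest being Ipo11 (-0.54). The 3 members nearest the threshold without passing were Tpr (1.03, edgeR adjusted p = 0.0552), the microRNA precursor exporter Xpo5 (0.95, 0.0694) and the inner ring gene Nup155 (0.56, 0.0738), the last with -0.34 relative to the typical leader.

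The members tested with the highest mean leader percent were Xpot, Ipo13 and Nup50, in both arms alike. Xpot had 503, 435 and 594 leader footprints with tunicamycin and 488, 271 and 337 untreated, which was 46.1, 42.9 and 52.3% of leader and coding footprints with tunicamycin and 35.0, 24.2 and 28.6% untreated. Ipo13 stood at 30.04, 32.3 and 37.5% with tunicamycin and 18.9, 14.4 and 18.8% untreated, and Nup50 at 26.2, 22.2 and 30.7% with tunicamycin and 17.6, 16.2 and 15.995% untreated. At the other end, Nup210 had 0, 1 and 3 leader footprints with tunicamycin and none in the 3 untreated libraries, too few to be tested. Of the members not tested, 20 had a leader line with too few reads, and 2 had no leader line. Footprints on 3′ UTRs showed no such shift: they were 0.884 ± 0.0438% of the members' footprints with tunicamycin and 0.877 ± 0.0756% untreated (SD, n = 3 each).

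Harringtonine reads, which collect where ribosomes start, passed the test for no member. The deposited files list 93 positions in 43 members, of 9025 positions in all, and 34 members had enough reads to be tested as a sum per gene. Each listed member position had at least 20 reads summed over 1 arm, as in Ipo7 with 3 reads with tunicamycin and 20 untreated. Weaker positions are therefore absent from the sums, and a position could enter through 1 arm alone. By the edgeR test 0 members were called, 0 had an unadjusted p under 0.05 (3.61% of all genes did) and DESeq2 also called 0, where 0.0272% of 3681 genes were called higher and 0% lower. Groups were separate upwards in 1 member (Nup85) and downwards in 2 (Ndc1 and Xpo4), where 5.22% and 3.86% of all genes were. Nup85, a Y complex scaffold protein, had 364, 383 and 313 CPM of kept reads with tunicamycin and 300, 215 and 268 untreated (log2 0.43 ± 0.23, edgeR adjusted p = 0.998). Nup214 and Ndc1 followed with log2 values of -0.60 ± 0.37 and -0.55 ± 0.35 and the same adjusted p.

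The Ran cycle supplied the members with most harringtonine reads. Ranbp1 had 520, 542 and 486 reads with tunicamycin and 443, 372 and 399 untreated over 4 positions, Rangap1 398, 417 and 519 with tunicamycin and 407, 445 and 393 untreated over 3 positions, and Rcc1 373, 330 and 431 with tunicamycin and 211, 276 and 332 untreated over 2 adjacent positions. Library totals differ, and in CPM of kept reads all 3 genes overlapped between arms. Tnpo1 and Tnpo3 came next, with 1214 and 1037 reads over the 6 libraries. Ran itself had 145, 104 and 76 reads with tunicamycin and 149, 65 and 97 untreated on 5 positions, with overlap (log2 -0.24 ± 0.29, edgeR adjusted p = 0.998).

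The letters below harringtonine positions could be read where a position fell in a RefSeq promoter window (GRCm38.p6), which spans 250 bases before to 50 bases after a transcript start. Over all genes, 740 positions had the bases needed, and 185 of them (25%) had the triplet ATG 12 or 13 bases downstream on the strand of the position. At single offsets from 0 to 21 the shares were 10.4% at 12 and 14.2% at 13 bases and at most 4.02% at any other. Of 7 such positions in 4 members, 1 had it, in Xpo1. The stretches shown each start at the position and run 5′ to 3′, with the first ATG in capitals. They are the Xpo1 one, the most read Nup50 position, which has no ATG, and a Nup88 position directly before one.
Xpo1 chr11:23255945-23255974 (+): ctccgcggcgccATGggctgaaaactcaac
Nup50 chr15:84923436-84923465 (+): cgctctcttcaccgttctgtagcagcttcg
Nup88 chr11:70969924-70969952 (-): gATGgcggctgccgtggggcccttgggcg
In the Xpo1 stretch the ATG is followed in frame by ggc and the stop triplet tga. This position lies 36 bases inside the 5′ end of the RefSeq gene span. Relative to the transcript start of the window it was read from, it lies at -96 bases. It had 9, 8 and 3 reads with tunicamycin and 3, 6 and 3 untreated. The position with most Xpo1 reads lies 687 bases inside the gene span. That position had 43, 53 and 67 reads with tunicamycin and 53, 45 and 59 untreated. The Nup50 position had 66, 68 and 72 reads with tunicamycin and 62, 47 and 56 untreated. The Nup88 position, in a gene of the cytoplasmic face, had 12, 14 and 9 reads with tunicamycin and 10, 7 and 9 untreated. A match is a description of letters and does not show that a ribosome starts there. Among RefSeq windows of members, 16 of 52 (30.8%) held an ATG in the 50 bases after the transcript start, against 44.3% of 32851 windows of all genes.

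A larger share of reads lay far from the gene start in members than over all genes, in all 6 libraries. Positions over 10000 bases along the genome from the RefSeq gene start held 12.9, 17.2 and 17.3% of the members' harringtonine reads with tunicamycin and 14.95, 24.6 and 16.5% untreated, on 34 positions in 20 genes. Over all genes they held 4.67, 5.40 and 5.69% with tunicamycin and 5.31, 6.42 and 5.79% untreated. Distance runs along the genome and includes introns, and gene spans were not matched between members and all genes. A gene shorter than 10000 bases can hold no such position. Far positions of members held 419, 560 and 589 reads with tunicamycin and 427, 685 and 454 untreated. Of these reads, 1214 over the 6 libraries belonged to Tnpo1, whose 3 positions all lay at least 35413 bases in. Nup205, an inner ring scaffold gene, had the most positions of any member, and these 7 together had 17, 94 and 111 reads with tunicamycin and 39, 193 and 102 untreated. The first library of each arm was low and the second untreated library high, and libraries within an arm differed more than the arms did (log2 -0.92 ± 0.60, edgeR adjusted p = 0.998).

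**Figure D5:**
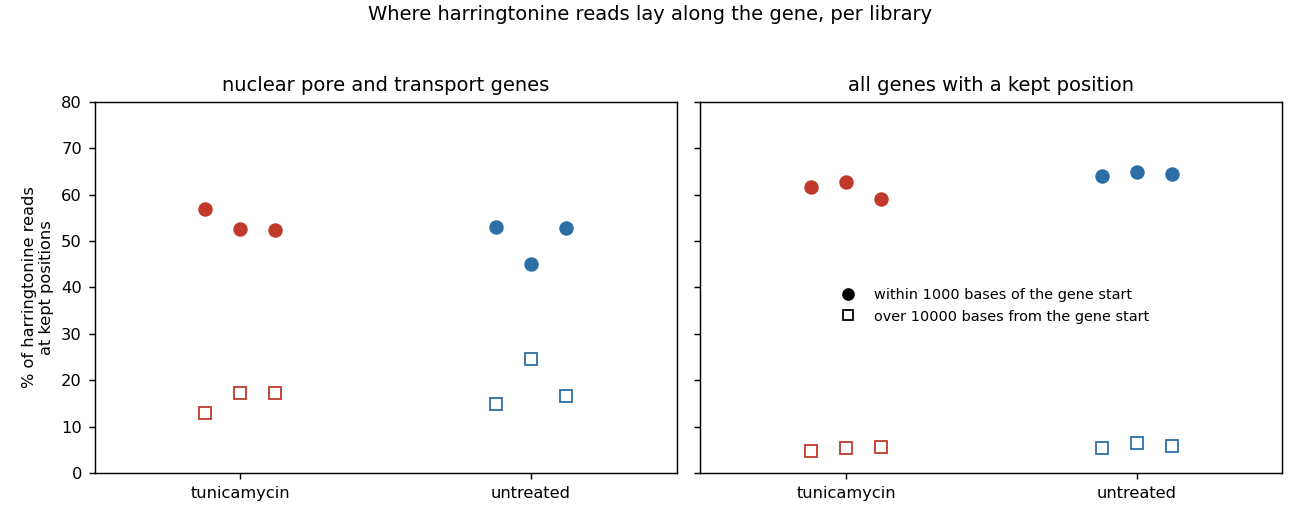
Percent of harringtonine reads at positions within 1000 bases of the gene start (filled circles) and over 10000 bases from it (open squares), for the members (left) and all genes with a kept position (right); each point is a library, tunicamycin in red and left of untreated in blue. The second untreated library has 24.6% of member reads far from the start, and the other libraries 12.9 to 17.3%.

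Other genes of the pathway were read from 3 further lists, chosen with earlier results of these data known. Of 18 transport genes outside the naming rule, 16 were tested in RNA and 15 in coding footprints, and 0 passed in either or in translational efficiency by edgeR, with 2, 3 and 3 (12.5, 20 and 20%) at an unadjusted p under 0.05, where 12.4, 16.6 and 15.5% of all genes were. Cse1l, the exportin that returns importin alpha to the cytoplasm, averaged 235 RNA CPM with tunicamycin and 216 CPM untreated (log2 0.13, edgeR adjusted p = 0.407), and Ahctf1, which seeds pores on chromatin, 240 with tunicamycin and 211 untreated (log2 0.19, edgeR adjusted p = 0.398). Their median RNA log2 value was 0.04. The 20 mRNA export genes had a median of -0.01 in RNA and 0.06 in translational efficiency, and the 12 lamina and envelope genes 0.01 and 0.03. None of them passed by edgeR in RNA, coding footprints or translational efficiency. In the leader ratio 5 of 5 tested transport genes, 8 of 14 mRNA export genes and 5 of 7 lamina and envelope genes rose and 0 fell, with medians of 1.06, 0.87 and 0.94, where 64.4% of all genes rose with a median of 0.90. These counts lie close to that share or rest on few genes.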

How the data were processed

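In 6 groups of 3 samples, RNA, cycloheximide footprints and harringtonine footprints were sequenced. The deposited table holds raw read counts per gene and feature (5′ leader, CDS and 3′ UTR) with an RNA count per gene, and the deposited harringtonine files hold read counts at single positions. Per the submitters' processing notes, STAR, HTSeq and edgeR were used, with mm10 and GRCm38 named as builds; the sources used here do not state their versions, options or strand setting.

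Counts were tested over the whole table by the quasi-likelihood test of edgeR 4.0.16 (R 4.3.3), after filterByExpr with a minimum count of 10 and total of 15 and TMM scaling, with Benjamini-Hochberg adjustment and a threshold of 0.05, and DESeq2 1.42.0 was the alternative tool. Each adjusted p is from edgeR (glmQLFit, glmQLFTest) where no other tool is given. SE is the size of the log2 change divided by the square root of its quasi-likelihood F. TMM sets the typical gene near 0, so changes in RNA, coding footprints and efficiency are relative to it. Efficiency was the interaction of assay and treatment over both kinds of library. The leader ratio was the interaction of feature and treatment within cycloheximide libraries, with a term per library and 1 scaling factor each. Harringtonine counts are sums of the kept positions of a gene, meaning the positions deposited, so weaker positions are left out. CPM are counts scaled to the assay's library total (coding footprints for CDS). The scripts were tested on simulated counts.

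Same-numbered RNA libraries of the 2 arms deviated together (correlations across genes 0.416, 0.312 and 0.191, the last beside 0.190 between tunicamycin library 3 and untreated library 2), and the numbers come from the sample titles; for footprints they were 0.348, 0.0943 and 0.277, and for harringtonine reads, by the number in the column heading, 0.481, 0.0922 and 0.170; these columns were tied to an arm only. RNA numbers were taken as pairs since each correlation is over 0.1. Adjusted p of single genes in RNA are from the fit without a replicate block unless the block is named, so they do not use the pairs. All 55 symbols matched RefSeq (GRCm38.p6); 11 overlap another protein-coding gene. Sequences are from RefSeq.

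The members, roles and gene lists were chosen with earlier results of these data known. Named were members that passed in any test, the 3 nearest in each test, the 5 with most harringtonine reads and Ran, Rcc1, Kpnb1, Kpna2, Xpo1, Xpo7, Tpr, Nup210, Nup98, Nup153 and Ranbp2. Coding lengths were not used here, so expression levels were not compared between genes; genes are ordered only by deposited harringtonine reads and by leader percent. Nup35, Nup205, Nup160, Nup88, Ipo5, Ipo11, Cse1l and Ahctf1 were named after their values were seen.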

Additional observations from a re-analysis of the deposited data

How the results depend on the processing

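Alternatives changed the tool, scaling, filter, replicate block or libraries. In RNA, the 16 genes and 1 member called became 114 and 4 with DESeq2, 122 and 3 with no filter and 410 and 7 with the replicate block; without 1 library, 3 to 26 genes and 0 to 2 members were called higher and 0 lower. In coding footprints, 239 genes became 573 with no filter and 885 with the replicate block, where 2 members were higher in each and 3 lower with the block; without 1 library, 58 to 431 genes, 0 to 1 members higher and 0 to 2 lower. For translational efficiency, 129 genes became 357 with DESeq2 and 830 with the replicate block; members lower numbered 3 with DESeq2, 1 with no filter and 5 with the block, which also called 1 higher; without 1 library, 20 to 296 genes, 0 members higher and 0 to 3 lower. Footprint libraries share only a number by the rule used, although each correlated best with its own number. The leader ratio went from 3024 genes and 25 members to 562 and 4 with separate factors, and to 1912 to 3000 genes and 21 to 27 members higher, 0 lower, without 1 library. Of the members called or nearest the threshold, Nup50, Ranbp1, Rangap1 and Nup155 turned to -0.061, -0.0099, -0.29 and -0.34 with separate factors. For harringtonine reads, 1 gene became 2 with DESeq2 and 0 near the gene start only or without 2 outlying libraries (both chosen after seeing the data), and 0 to 2 without 1 library, with 0 members each time. With the replicate block by the number in the column heading, 3 genes were called there; not every such library correlated best with its own number. The cause of these differences was not tested. Of the values of named members, 494 kept direction and side of the threshold, 46 lost the call, 39 gained it and 4 reversed. Lowest counts limit Nup35 and leaders with few footprints.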
